A study of Mus musculus with 27 samples.

Results

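The livers of mice fed a high-fructose diet were compared with those of mice fed lab chow over 5925 genes, out of 18194 gene symbols that the probes of the array name. A gene entered when its mean intensity exceeded log2(100) on either diet, a log2 intensity of 6.64 that is called the detection level here. Of these genes, 5544 passed on both diets, 211 on high fructose only and 170 on lab chow only. Genes that passed on 1 diet had to be higher there, and they are therefore left out of the counts over gene lists below and named apart. The lists overlap, and a gene such as Acox2, Elovl5, Gsta2, Aldh1a1, Cbr1 or Hamp2 counts in each list that holds it. Just inside the level of 6.6439 lay Fcer1g and Lcorl, with a higher diet mean of 6.6447 and 6.6451, and just outside lay Slc35b2 at 6.6436 and Armc8 at 6.6432.

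Total liver RNA was hybridised to Affymetrix mouse genome arrays, with 1 array per mouse, n = 3 mice per diet and 9 diets in the study. All mice were male C57BL/6 mice, labelled 10 weeks of age, which ate their diet for 3 weeks and were killed in the morning without fasting. The high-fructose arrays, titled 60% Fructose, came from mice fed a diet with 60% fructose. The lab chow arrays, titled Current LAR Diet, came from mice fed the facility's diet of natural ingredients. A purified diet, AIN-93M, named AIN-93 below, was the control of the study and is used here as a second reference. By the study's methods, the carbohydrate of lab chow was mostly polysaccharide, AIN-93 held some sucrose besides polysaccharide, lab chow held more protein and more polyunsaturated fat than the fructose diet, and the fructose diet held more saturated fat. Fructose and the other components of the diets thus cannot be told apart. Whole liver was measured, in which fewer cells of a type and less RNA per cell cannot be told apart.

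In the liver, fructose is phosphorylated by ketohexokinase and cleaved to trioses, of which glyceraldehyde is phosphorylated by triokinase. The trioses feed glycolysis, glucose and glycogen synthesis and, by way of acetyl-CoA, the synthesis of fatty acids, and sugar-rich diets are known to raise lipogenic transcripts through the transcription factors ChREBP (Mlxipl) and SREBP-1c (Srebf1). Another set of liver transcripts serves the removal of foreign compounds. The nuclear receptors CAR (Nr1i3) and PXR (Nr1i2), the aryl hydrocarbon receptor and Nrf2 control many of its enzymes and transporters, and compounds in plant-based feed are among their known activators.

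Livers of mice on high fructose differed from those on lab chow in 523 of the 5925 genes (8.83%) at an adjusted p under 0.05 in limma, of which 255 (4.3%) were higher and 268 (4.52%) lower on high fructose. Such genes are termed called below. Among the genes above the detection level on both diets, 206 (3.72%) were higher and 230 (4.15%) lower, which is 7.86% of them together. The counts over gene lists below stand beside these shares. The other 87 calls fell on genes above the level on 1 diet, 49 on high fructose and 38 on lab chow. Of the called genes, 231 differed by less than 1.5-fold, whereas 57 were at least 2-fold higher and 58 at least 2-fold lower. The median absolute log2 difference of called genes was 0.62, and the median difference of all genes was 0.01. The arrays of the 2 diets did not overlap for 518 of the called genes and for 35.3% of all genes. Every array lay nearest to an array of its own diet, with a mean Euclidean distance over the 5925 genes of 23.04 within high fructose, 22.83 within lab chow and 37.97 between them. When each of the 6 arrays was left out in turn, all 523 called genes kept their direction and 188 kept their call every time. The number of calls was 263 without high-fructose array 3, 296 without high-fructose array 1, 316 without lab chow array 2 and 345 without lab chow array 3.

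**Figure D1:**
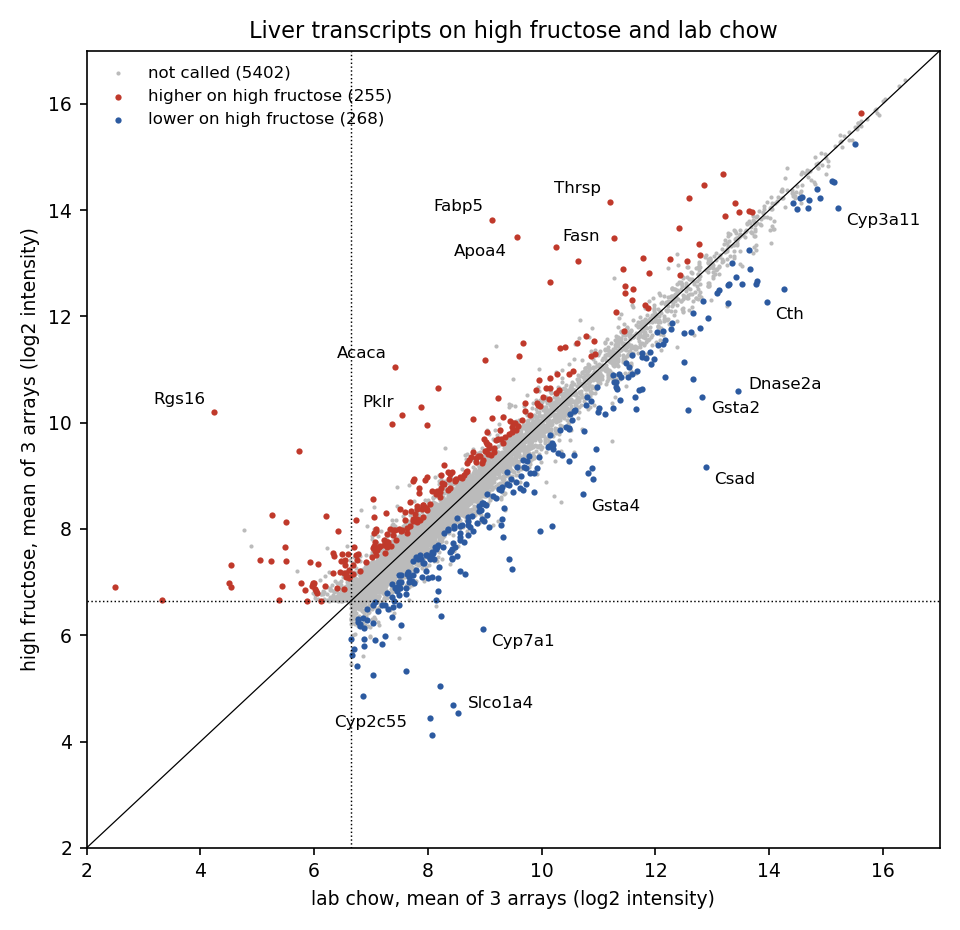
Mean log2 intensity of 5925 genes on lab chow (x axis) and high fructose (y axis), n = 3 arrays per diet. Red points are the 255 genes higher and blue points the 268 genes lower on high fructose at an adjusted p under 0.05, gray points the others, dotted lines mark the detection level and the diagonal marks equal values. Fabp5, Apoa4 and Acaca lie far above the diagonal, and Csad, Cyp2c55 and Slco1a4 far below it.

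Of 5 genes of fructose and glucose entry above the detection level on both diets, 3 were higher on high fructose and none lower. Khk, which encodes ketohexokinase, had log2 intensities of 12.918, 12.783 and 12.996 on high fructose and 11.519, 11.326 and 11.448 on lab chow. The arrays of the diets did not overlap, and Khk was 277% of lab chow (95% confidence interval 197 to 389, adjusted p = 0.00054). Tkfc, which encodes triokinase, was measured at 10.08, 9.84 and 9.97 against 8.14, 7.79 and 8.03, and thus at 394% of lab chow (217 to 716, adjusted p = 0.0047). Gckr, the regulatory protein of glucokinase, was 174% of lab chow (adjusted p = 0.017), a call that was lost without high-fructose array 1 or lab chow array 2 (adjusted p 0.055 to 0.095). Slc2a9, a transporter of urate and hexoses that passed the level on lab chow only, lay below the detection level on all 3 high-fructose arrays and was at least 1.12-fold lower (adjusted p = 0.0086, or 0.055 without high-fructose array 1).

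Further along the pathway, Pklr, the liver pyruvate kinase that closes glycolysis, was measured at 9.91, 10.14 and 10.39 on high fructose and at 7.68, 7.33 and 7.63 on lab chow. It was 606% of lab chow (309 to 1189, adjusted p = 0.0014). Glycolysis had 3 of 6 measured genes higher and none lower, and the other calls were Gapdh (150.2%) and Aldoa (131%). Gapdh lost its call without high-fructose array 2 or 3 or lab chow array 1 or 3 (adjusted p 0.055 to 0.12), and Aldoa without high-fructose array 3 or lab chow array 1 or 2 (adjusted p 0.084 to 0.19). In the pentose phosphate pathway, which supplies NADPH for fatty acid synthesis, 1 of 6 genes was higher. It was Pgd, 6-phosphogluconate dehydrogenase, at 451% of lab chow (237 to 856, adjusted p = 0.0041). Apart from these 6, Rpia, ribose 5-phosphate isomerase, lay below the detection level on every lab chow array and was at least 2.02-fold higher (adjusted p = 0.0014). Of 12 genes of glucose and glycogen synthesis, 11 had a positive difference, with a median of 0.58 on the log2 scale, and 4 were called. These 4 were the glycogen synthase Gys2 (142% of lab chow), the glycogen phosphorylase Pygl (159%), Ugp2 (164%) and the glucose 6-phosphate transporter Slc37a4 (181%). All 4 calls were lost without high-fructose array 1 or 2 or lab chow array 2, those of Gys2 and Slc37a4 also without any other array of either diet, that of Pygl without high-fructose array 3 and that of Ugp2 without lab chow array 3 (adjusted p 0.053 to 0.18 in all).

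Rgs16, a regulator of G protein signaling and a transcript known to respond to carbohydrate, had the largest fitted difference of all called genes. Its log2 intensities were 10.46, 9.83 and 10.31 on high fructose and 4.51, 4.89 and 3.30 on lab chow. Since all lab chow arrays lay below the detection level, it is given as at least 11.7-fold higher (adjusted p = 0.00051). On AIN-93 the values were 10.00, 10.87 and 9.33, a range that spans that of high fructose. The transcription factors themselves were not called: Mlxipl was 165% of lab chow (118 to 231, adjusted p = 0.056, or 0.022 without lab chow array 1) and Srebf1 was 171% (107 to 272, adjusted p = 0.14). Of 8 carbohydrate-responsive regulators above the level on both diets, 0 were called in limma and 4 had an unadjusted p under 0.05. Over all 5925 genes, 1501 had such a p.

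Fatty acid synthesis was the list with the highest share of higher genes among lists of more than 10 genes. Of its 15 genes above the level on both diets, 10 were higher on high fructose, none was lower, and all 15 differences were positive, with a median of 1.61 on the log2 scale against 0.01 over all genes. With Aacs, which passed the level on high fructose only, the median was 1.83. Acaca, the acetyl-CoA carboxylase that commits acetyl-CoA to this pathway, was measured at 11.13, 10.76 and 11.28 on high fructose and at 7.47, 7.45 and 7.35 on lab chow. It was 1241% of lab chow (570.2 to 2700.2, adjusted p = 0.00028). Fasn, the fatty acid synthase, had values of 13.32, 13.13 and 13.45 against 10.23, 10.42 and 10.14, and was 822% of lab chow (308 to 2193, adjusted p = 0.0072). Acly, which supplies cytosolic acetyl-CoA from citrate, was 566% (309 to 1036, adjusted p = 0.00079). Thrsp, a nuclear protein linked to lipogenesis, was 778% (343 to 1765, adjusted p = 0.0025). Elovl6, which elongates palmitate, was 609% (245 to 1514, adjusted p = 0.012), and its adjusted p was 0.051 without high-fructose array 3. Its 3 probes ranged in log2 difference from 0.95 to 3.55. The desaturase Scd1 was 305% of lab chow (199.9 to 465, adjusted p = 0.0015), and its 2 probes differed in size, with log2 differences of 0.67 and 2.55. For 8 of the 10 genes the call held whichever of the 6 arrays was left out.

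**Figure D2:**
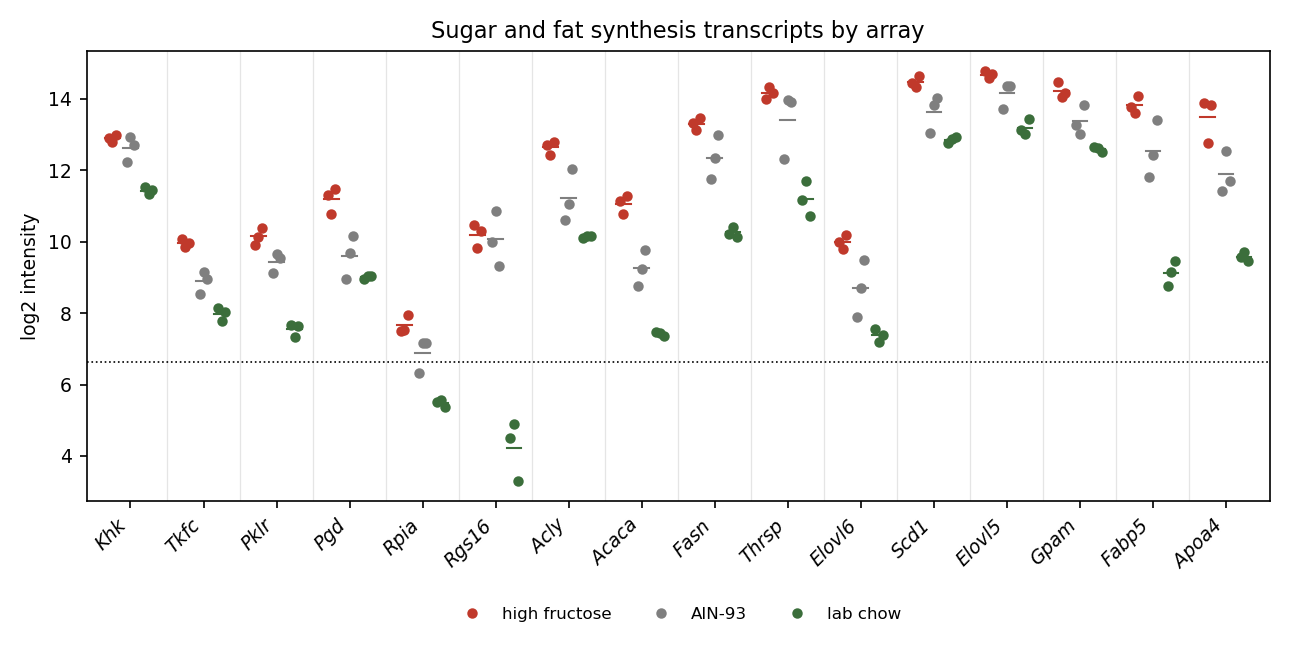
Log2 intensity (y axis) of 16 genes of sugar use, fatty acid synthesis and lipid handling on each array of high fructose (red), AIN-93 (gray) and lab chow (green), n = 3 arrays per diet, with short lines at the means and a dotted line at the detection level. For every gene shown, all 3 high-fructose arrays lie above all 3 lab chow arrays.

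Promoter windows of RefSeq (GRCm38.p6, from 250 bases before to 50 after a gene's start) were searched on both strands for CACGTG, an E-box of the kind that ChREBP and other factors bind. Unlike the counts above, the called genes searched include Aacs, Rpia, Mvd and Slc2a9, each above the level on 1 diet only. Slc2a9 among them was called lower. Of 13 such called genes of the sugar lists 12 had a window, and of 11 of fatty acid synthesis 10 had one. The E-box was found for 1 of the 12, Khk, and for 1 of the 10, Elovl5. Of all 27025 genes with a window, 8.09% held it, and 12.6% of the genes tested did. The stretches around these matches are shown because Khk and Elovl5 were called, with the E-box in capitals and the strand of the gene, 5′ to 3′.
Khk (chr5:30921461-30921520, plus strand): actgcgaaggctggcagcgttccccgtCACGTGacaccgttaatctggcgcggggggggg
Elovl5 (chr9:77917177-77917236, plus strand): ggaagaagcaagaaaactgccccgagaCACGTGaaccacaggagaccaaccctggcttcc
The E-box of Khk begins 71 bases and that of Elovl5 161 bases before the start. TGACNNNGC, the core of the antioxidant element, was found for 4 of the 12 genes of the sugar lists and 3 of the 10 genes of fatty acid synthesis, against 14.0% of all genes and 17.6% of the genes tested. The 3 genes of fatty acid synthesis were Acss2, Me1 and Aacs, of which Aacs passed the level on high fructose only. Among the 4 of the sugar lists was Tkfc, with a match that begins 74 bases before its start.
Tkfc (chr19:10604299-10604357, minus strand): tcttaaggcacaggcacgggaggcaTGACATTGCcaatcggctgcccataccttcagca
TCACNCCAC, a form of the sterol element, was in none of these windows and in those of 1.44% of all genes. None of the 3 motifs was in the windows of the called genes of cholesterol synthesis or of the glutathione S-transferases, with 2 genes each. A match describes the letters of a window, and binding was not measured.

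In the list of polyunsaturated fatty acid synthesis, 4 of 13 genes were higher, and none was lower. Elovl5 was 281% of lab chow (200.3 to 393, adjusted p = 0.00043), the desaturase Fads2 237% (162 to 346, adjusted p = 0.005), the acyl-CoA synthetase Acsl5 215% (adjusted p = 0.0039) and Elovl2 168% (adjusted p = 0.0034). Gpam, which starts glycerolipid synthesis, was measured at 14.47, 14.06 and 14.17 against 12.64, 12.63 and 12.50 and was 312% of lab chow (212 to 458, adjusted p = 0.00059). It was the only gene called higher of 17 in glycerolipid synthesis, and Pcyt1a of phosphatidylcholine synthesis was lower at 75.4% (adjusted p = 0.023), a call lost without any 1 array except lab chow array 1 (adjusted p 0.052 to 0.092).

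Among genes of fatty acid transport, Fabp5, a fatty acid binding protein best known from skin and macrophages, showed the largest difference of a gene detected on both diets. Its log2 intensities were 13.78, 13.60 and 14.08 on high fructose and 8.77, 9.14 and 9.47 on lab chow, and it was 2591% of lab chow (1178 to 5702, adjusted p = 1.7e-05). Fabp2, the intestinal form, was 202% (155 to 264, adjusted p = 0.0015). Of the 12 genes of fatty acid uptake and binding measured, these were the 2 called. Apoa4, an apolipoprotein of lipid-rich particles, was measured at 13.89, 12.75 and 13.82 against 9.57, 9.70 and 9.45, and was 1509% of lab chow (882 to 2581, adjusted p = 9.7e-07). Apoc2, the activator of lipoprotein lipase, was 236% (181 to 309, adjusted p = 0.00031). Mttp, which loads lipid onto apolipoprotein B, was 157% (126 to 194, adjusted p = 0.0085, or 0.051 without high-fructose array 3). In all, 4 of 18 genes of lipoproteins and their assembly were higher and none lower, with a median difference of 0.06, and the list had 2 calls without high-fructose array 3. Of 11 genes of lipid droplets and lipases above the level on both diets, 1 was higher and 1 lower. Abhd5, the coactivator of adipose triglyceride lipase, was 204% (adjusted p = 0.014, or 0.09 without high-fructose array 3). Ces1d was lower at 64.5% (50.8 to 81.9, adjusted p = 0.019), a call lost without high-fructose array 1 or 2 or lab chow array 1 or 3 (adjusted p 0.05 to 0.082). Apart from these 11, Pnpla5 lay below the detection level on every lab chow array and was at least 1.20-fold higher (adjusted p = 7e-05). Mfsd2a, a transporter of lysophospholipids, was also below the level on lab chow and at least 7.08-fold higher (adjusted p = 0.0073).

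Few genes of fatty acid oxidation were called. Cpt1a, the entry step of long-chain fatty acids into mitochondria, was measured at 10.20, 10.55 and 10.14 on high fructose and at 10.64, 10.50 and 10.72 on lab chow. The arrays overlapped, and the difference was not called (80.1% of lab chow, 55.7 to 115, adjusted p = 0.46). Of 21 genes of mitochondrial oxidation, 1 was called, Acadm at 69.6% (adjusted p = 0.024), and its call was lost without high-fructose array 3 or lab chow array 1 or 2 (adjusted p 0.063 to 0.12). Of 18 peroxisomal and microsomal genes, 3 were lower. They were the carnitine octanoyltransferase Crot at 46.1% (35.8 to 59.3, adjusted p = 0.00043), the thiolase Acaa1a at 56.8% (adjusted p = 0.0046) and the branched-chain acyl-CoA oxidase Acox2 at 63.2% (adjusted p = 0.0076).

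Transcripts of the citrate cycle and pyruvate dehydrogenase were higher for 5 of 24 genes and lower for 1. With Pdk2, which passed the level on high fructose only, the list had 3 calls without high-fructose array 1 or lab chow array 2. It had 4 without high-fructose array 3 or lab chow array 3. Cs, the citrate synthase, was measured at 11.46, 11.14 and 11.59 against 10.30, 10.26 and 10.41 and was 210.4% of lab chow (159 to 279, adjusted p = 0.0015). Dlat, a subunit of pyruvate dehydrogenase, was 189% (140.4 to 254, adjusted p = 0.0072). Idh2, the mitochondrial NADP isocitrate dehydrogenase, was lower at 59.0% (47.5 to 73.1, adjusted p = 0.0029). In respiratory complex I, 4 of 33 genes were higher and none lower, and 30 of the 33 differences were positive, with a median of 0.17 on the log2 scale. Ndufa8 was the largest at 169.8% (142 to 204, adjusted p = 0.00067). Complexes II to V had 4 of 37 genes higher and none lower, with 34 differences positive and a median of 0.13. Of these 8 calls Ndufa8 alone held whichever array was left out. Complex I had 1 call without high-fructose array 3 or lab chow array 2, and complexes II to V had 2 without high-fructose array 1 or lab chow array 1 and 0 in limma without high-fructose array 3 or lab chow array 2. In a fit of the 6 arrays of both diets alone, complex I had 1 call and complexes II to V had 0 in limma, against 643 over all genes. With all arrays 11 genes of each list had an unadjusted p under 0.05, as had 1501 of all 5925 genes.

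Cholesterol synthesis showed no common direction. Of 15 genes, 1 was called, and the differences were positive for 7 and negative for 8. It was Msmo1, a methylsterol oxidase, which was lower at 45.4% of lab chow (33.7 to 61.2, adjusted p = 0.0015). Mvd, above the level on high fructose only, lay below it on every lab chow array and was at least 1.63-fold higher (adjusted p = 0.02), a call lost without high-fructose array 3 or lab chow array 1 or 2 (adjusted p 0.061 to 0.12). Cyp7a1, the rate-limiting enzyme of bile acid synthesis, was measured at 5.33, 7.44 and 5.59 on high fructose and at 8.96, 9.22 and 8.73 on lab chow. High-fructose array 2 was the only one of its diet above the detection level, and no array reached those of lab chow. Cyp7a1 was 13.9% of lab chow as fitted (4.26 to 45.4, adjusted p = 0.034), and its call was lost without any 1 array except high-fructose array 2 (adjusted p 0.069 to 0.13). Cyp8b1, which directs synthesis toward cholic acid, was not called (105%, 58.6 to 189, adjusted p = 0.93). In sterol sensing, 2 of 7 genes were higher, Insig2 at 189% (adjusted p = 0.013, lost without high-fructose array 1 or lab chow array 1 at 0.054 to 0.075) and Scap at 149% (adjusted p = 0.012, lost without high-fructose array 3 or lab chow array 2 at 0.07 to 0.071). Baat, which conjugates bile acids to taurine and glycine, was 67.6% (56.6 to 80.6, adjusted p = 0.0059). Of 19 genes of bile acid synthesis above the level on both diets, which leaves out Cyp7a1, 2 were lower, Baat and Acox2, and none higher. Of all genes above the level on both diets, 4.15% were lower.

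Targets of CAR and PXR formed the list with the most lower genes. Of 21 genes above the level on both diets, 13 were lower on high fructose, none was higher, and 20 differences were negative, with a median of -0.95 on the log2 scale. The calls of 12 of these 13 genes, all but Cyp2c29, held whichever array was left out. Slco1a4 and Cyp2c55 passed the level on lab chow only, and with them the median was -0.96. Slco1a4, an uptake carrier of organic anions, was measured at 4.32, 5.28 and 4.03 on high fructose and at 8.50, 8.37 and 8.69 on lab chow. It was at least 3.68-fold lower (adjusted p = 0.0002). The cytochrome P450 Cyp2c55 was measured at 4.84, 4.29 and 4.18 against 8.03, 7.80 and 8.29 and was at least 2.63-fold lower (adjusted p = 1.9e-07). Ces2a, a carboxylesterase, was 27.8% of lab chow (22.2 to 34.8, adjusted p = 1.9e-07). Abcc3, a pump that exports conjugates to blood, was 25.7% (16.6 to 39.7, adjusted p = 0.00035). Cyp3a11, a cytochrome P450 that oxidizes many drugs, had values of 14.21, 13.67 and 14.24 against 15.24, 15.15 and 15.24 and was 44.4% (32.0 to 61.6, adjusted p = 0.0026). The receptor transcript Nr1i3, which is itself a member of this list and 1 of the 13 lower genes, was 46.7% (34.9 to 62.3, adjusted p = 0.0015). Cyp2b10, a classic CAR target, lay below the detection level as a mean on both diets, near the lowest value of the arrays on high fructose (2.29 on each) and at 7.06, 5.76 and 5.91 on lab chow, and was not tested. Several of these genes have close paralogs, which the probes may not separate.

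**Figure D3:**
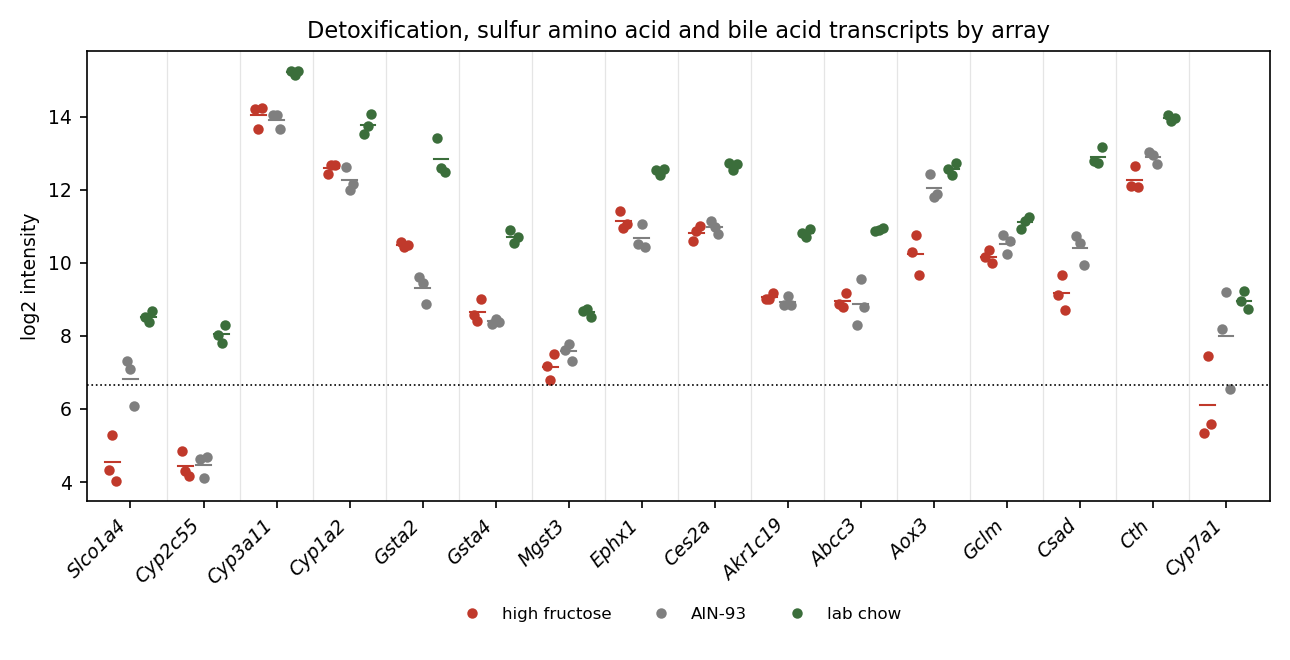
Log2 intensity (y axis) of 16 genes of detoxification, sulfur amino acid and bile acid metabolism on each array of high fructose (red), AIN-93 (gray) and lab chow (green), n = 3 arrays per diet, with short lines at the means and a dotted line at the detection level. All 3 high-fructose arrays lie below all 3 lab chow arrays for every gene, and the AIN-93 arrays of Ces2a and Akr1c19 lie beside those of high fructose.

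Of 4 targets of the aryl hydrocarbon receptor, 2 were lower. Cyp1a2, a cytochrome P450 that oxidizes caffeine, was 44.3% of lab chow (32.8 to 59.8, adjusted p = 0.0013). Ugdh, which makes the UDP-glucuronate used in conjugation, was 44.9% (32.4 to 62.1, adjusted p = 0.0028). The aldo-keto reductase Akr1c19 was measured at 9.01, 9.01 and 9.17 against 10.82, 10.72 and 10.92 and was 29.6% (22.5 to 38.9, adjusted p = 7.1e-06). Aox3, an aldehyde oxidase, was 19.8% (12.3 to 32.0, adjusted p = 0.0002). Of 24 aldehyde and carbonyl enzymes listed, which do not include Aox3, and of 15 enzymes of glucuronidation and sulfation, 5 each were lower and none higher. With Aldh4a1, which passed the level on lab chow only, the first list had 2 calls without lab chow array 1. It had 3 without high-fructose array 1 or 3 or lab chow array 2 or 3, and the second list had 3 without high-fructose array 3. Sult1b1 at 61.7% (adjusted p = 0.0051) and Ugt2a3 at 62.6% (adjusted p = 0.0047) were among those of glucuronidation and sulfation.

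Glutathione S-transferases, which conjugate reactive compounds to glutathione, were lower for 3 of 19 genes and higher for none. Gsta2 was measured at 10.56, 10.42 and 10.50 on high fructose and at 13.41, 12.60 and 12.48 on lab chow, and was 19.8% of lab chow (9.93 to 39.4, adjusted p = 0.0041). Gsta4, which acts on lipid peroxidation products, had values of 8.56, 8.40 and 9.02 against 10.90, 10.56 and 10.71 and was 24.0% (16.3 to 35.2, adjusted p = 7e-05). Mgst3 was 35.5% (25.4 to 49.4, adjusted p = 0.00035). The rest of the family showed differences on both sides of 0, and the median of the list was -0.19. Of 16 genes of glutathione synthesis and the Nrf2 response, 4 were lower, none was higher and 15 differences were negative. With Gss, which passed the level on lab chow only, there were 5 calls, against 2 without high-fructose array 1 or lab chow array 1 and 3 without high-fructose array 2 or lab chow array 3. Among them, the epoxide hydrolase Ephx1 was 39.1% (29.9 to 51.2, adjusted p = 0.00014). The modifier subunit of glutamate-cysteine ligase, Gclm, was 52.0% (42.8 to 63.1, adjusted p = 0.0002), whereas its catalytic subunit Gclc was not called (71.9%, 55.6 to 92.8, adjusted p = 0.094). Blvrb, a biliverdin reductase and 1 of 2 called genes among 19 of heme and iron, was 50.5% (41.8 to 61.1, adjusted p = 9.8e-05).

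**Figure D4:**
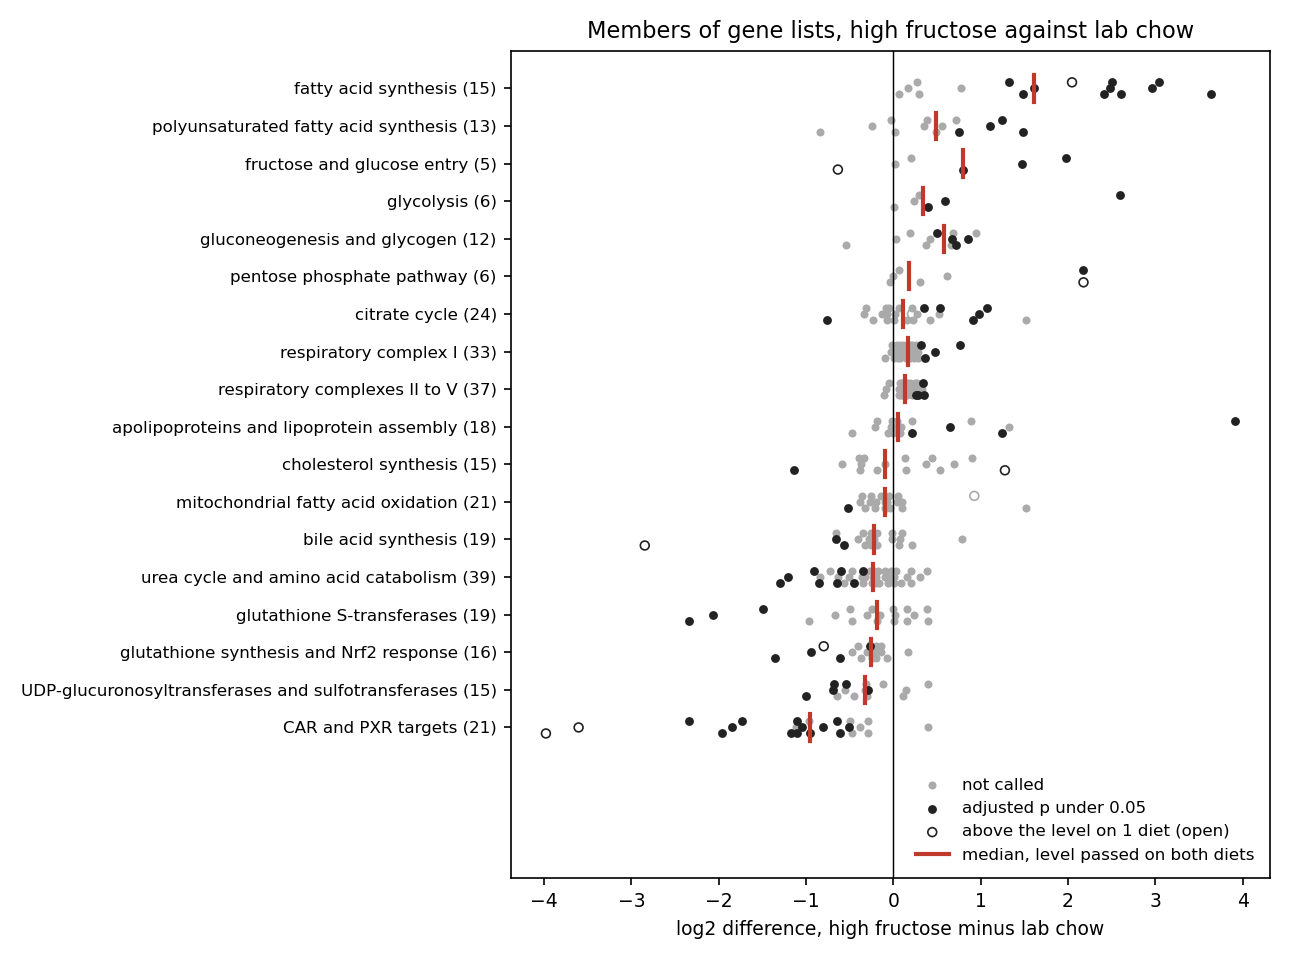
Log2 difference, high fructose minus lab chow (x axis), of the members of 18 gene lists (y axis, number above the detection level on both diets in parentheses). Black points are genes at an adjusted p under 0.05, gray points the others, open points genes above the level on 1 diet, and red lines the medians without the open points. Fatty acid synthesis lies furthest to the right with a median of 1.61 and targets of CAR and PXR furthest to the left with -0.95.

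In sulfur amino acid metabolism, the enzymes Csad and Cth were lower. Csad, which forms the precursor of taurine, was measured at 9.12, 9.67 and 8.71 on high fructose and at 12.78, 12.72 and 13.17 on lab chow, and was 7.57% of lab chow (4.05 to 14.1, adjusted p = 1.7e-05). It was the lowest percent of any named gene detected on both diets. Cth, which releases cysteine from cystathionine, had values of 12.09, 12.65 and 12.08 against 14.04, 13.88 and 13.96 and was 31.1% (21.9 to 44.1, adjusted p = 0.0002). They were the 2 called genes of 14 in this list. Of 39 genes of the urea cycle and amino acid breakdown, 8 were lower, none was higher and 30 differences were negative, with a median of -0.23. The list had 2 calls without high-fructose array 3, 4 without high-fructose array 1 and 5 without lab chow array 2 or 3. Dbt, a subunit of the branched-chain keto acid dehydrogenase, was 43.4% (32.5 to 57.9, adjusted p = 0.00075). Slc25a13, the mitochondrial aspartate and glutamate carrier, was 55.6% (44.0 to 70.4, adjusted p = 0.0025). Tdo2, which opens tryptophan breakdown, was 53.4% (40.1 to 71.2, adjusted p = 0.0065, or 0.054 without high-fructose array 3). Agxt, the alanine-glyoxylate aminotransferase, was 40.6% (25.1 to 65.8, adjusted p = 0.018), a call lost without high-fructose array 1 or 3 or lab chow array 3 (adjusted p 0.059 to 0.076). Cps1, the first enzyme of the urea cycle, had values of 14.74, 14.77 and 14.65 against 14.73, 14.62 and 14.71 and was not called (102%, 89.6 to 116, adjusted p = 0.87). The lists of sulfur amino acids and amino acid breakdown thus held no gene called higher.

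Enho, which encodes the secreted peptide adropin, was measured at 4.35, 5.05 and 4.68 on high fructose and at 8.16, 8.61 and 8.54 on lab chow, and was at least 3.46-fold lower (adjusted p = 0.0043). Igfals, a binding partner of circulating IGF, was 39.6% of lab chow (23.4 to 67.0, adjusted p = 0.024), with its call lost without high-fructose array 1 or 3 or lab chow array 2 or 3 (adjusted p 0.051 to 0.12). Igf1 was not called (73.1%, 55.9 to 95.7, adjusted p = 0.13). Of 21 acute phase genes and metallothioneins, 3 were lower and 1 higher, and the list had 1 call without high-fructose array 3 and 2 without high-fructose array 1 or lab chow array 2. Hamp2, a relative of the iron hormone hepcidin, was 459.6% of lab chow (263 to 804, adjusted p = 0.0012). Serum amyloid Saa4 was 37.8% (24.0 to 59.4, adjusted p = 0.0072, or 0.053 without high-fructose array 3). Complement and coagulation genes showed 1 call among 39, Masp1 at 136% of lab chow (adjusted p = 0.045), whose 3 probes disagreed in direction with log2 differences from -0.28 to 0.88 and whose call was lost without any 1 of the 6 arrays (adjusted p 0.072 to 0.13). Among lists without a call in limma were sterol efflux with 5 genes, the circadian clock with 9, heat shock chaperones with 12, cytosolic ribosomal proteins with 35, male-biased liver genes with 14 and interferon and antigen presentation with 15. An unadjusted p under 0.05 was found for 0, 0, 1, 4, 1 and 0 of these genes in that order, and for 1501 of all 5925 genes.

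Markers of other liver cells were examined beside these results. Hepatocyte markers had a mean log2 intensity of 13.97 to 14.06 on high fructose and 14.04 to 14.12 on lab chow, and 0 of 8 were called in limma or had an unadjusted p under 0.05. All 8 markers of stellate cells and fibroblasts above the level on both diets had a positive difference, and their mean lay between 9.26 and 9.53 on high fructose and between 8.69 and 8.97 on lab chow. The 2 called, Lrat (290.1% of lab chow, adjusted p = 0.036) and Rgs5 (190.2%, adjusted p = 0.033), both lost their call without high-fructose array 1 or lab chow array 2, Lrat also without high-fructose array 3 or lab chow array 1, and Rgs5 also without high-fructose array 2 or lab chow array 3 (adjusted p 0.057 to 0.17 in all). All 8 markers of sinusoidal endothelium and 9 of 11 of Kupffer cells were also positive, with medians of 0.27 and 0.47. None of them was called in limma, where 3 and 2 had an unadjusted p under 0.05, as had 1501 of all 5925 genes. In a fit of the 6 arrays of both diets alone, 4 of 11 endothelial markers were called, as were 643 of all 5925 genes. These 11 include 3 that passed the level on high fructose only and thus had to be higher there. The mean of the endothelial markers ranged from 8.12 to 8.22 on high fructose and from 7.81 to 8.02 on lab chow, and that of the Kupffer cell markers from 8.46 to 8.99 and from 8.09 to 8.45. A second measure took all markers on the array, whatever their level, and the highest probe of each gene in place of the mean of its kept probes. By it the means were 7.54 to 7.77 against 7.10 to 7.31 for 13 stellate markers and 6.96 to 7.13 against 6.70 to 6.89 for 16 endothelial markers. They were 7.10 to 7.61 against 6.81 to 7.09 for 18 Kupffer cell markers. For the 8 hepatocyte markers they were 14.70 to 14.87 against 14.89 to 14.93, with all high-fructose arrays below those of lab chow. No marker of cholangiocytes, T and NK cells, neutrophils, adipocytes or skeletal muscle reached the detection level as a mean on either diet. The immunoglobulin chain Ighm, the 1 B cell marker measured, was below the level on lab chow and at least 1.71-fold higher on high fructose, with values of 7.41, 8.40 and 6.45 (adjusted p = 0.047). Its adjusted p was 0.10 to 0.15 without any 1 array except high-fructose array 3. Against AIN-93, all 11 Kupffer cell markers were negative on both diets, with medians of -0.30 on high fructose and -0.76 on lab chow. In the same order, the medians were 0.04 and -0.55 for stellate markers and -0.10 and -0.51 for endothelial markers. The part of these markers in the other differences was not tested.

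**Figure D5:**
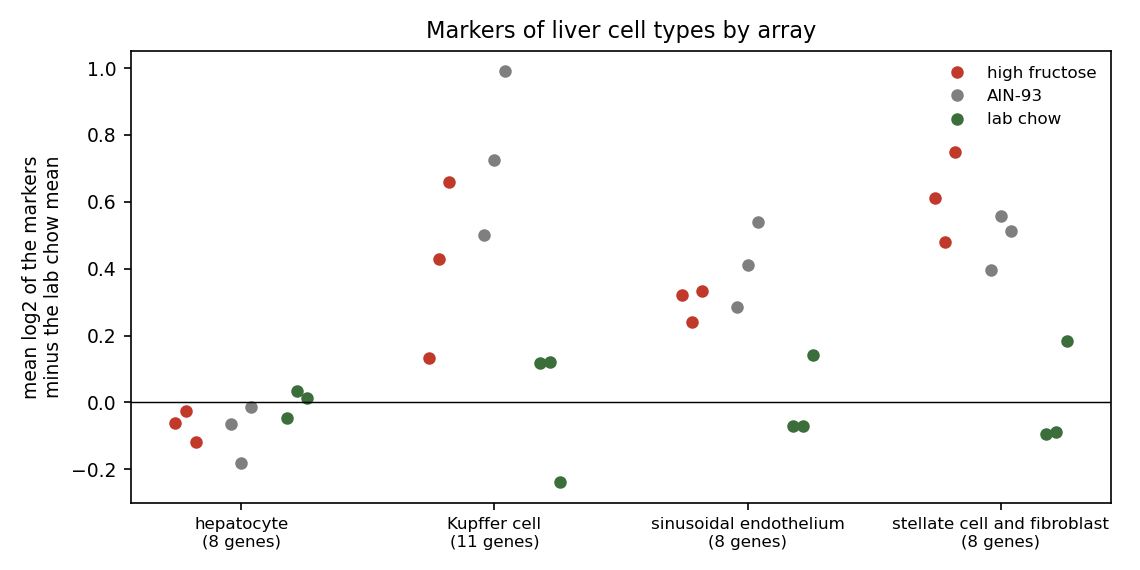
Mean log2 intensity of the markers of 4 liver cell types above the detection level on both diets, on each array (points), minus the lab chow mean of the same list (y axis), for high fructose (red), AIN-93 (gray) and lab chow (green), n = 3 arrays per diet. Stellate cell and endothelial markers of high fructose lie above all lab chow arrays, and hepatocyte markers lie near 0.

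AIN-93 places the differences in relation to a second control diet. The 3 comparisons among high fructose, lab chow and AIN-93 share arrays, so their values are given side by side. High fructose differed from AIN-93 in 44 genes (0.743%, 14 higher and 30 lower), and lab chow differed from AIN-93 in 139 genes (2.35%, 79 higher and 60 lower). At an unadjusted p under 0.05 there were 963 and 933 genes. For targets of CAR and PXR, 0 of 21 were called in limma between high fructose and AIN-93 (8 at an unadjusted p under 0.05, median difference -0.06), and 13 were higher on lab chow than on AIN-93 (median 0.67). Cyp2c55 lay below the detection level on every array of both high fructose and AIN-93. Gsta4 was 120.2% on high fructose (adjusted p = 0.65) and 501% on lab chow (adjusted p = 1.7e-05). Ephx1 was 138% (adjusted p = 0.21) and 353% (adjusted p = 3.2e-06). Of 19 glutathione S-transferases, 9 were called higher on lab chow than on AIN-93 (median 0.56). Between high fructose and AIN-93, 0 were called in limma and 10 had an unadjusted p under 0.05. There, 17 of the 19 differences were positive, thus higher on high fructose, with a median of 0.38. Slco1a4 lay otherwise, with AIN-93 values of 7.31, 7.08 and 6.07, the last below the detection level, between those of high fructose and lab chow.

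Of the 15 genes of fatty acid synthesis, 0 were called in limma between high fructose and AIN-93 (6 at an unadjusted p under 0.05, median difference 0.76), and 2 were lower on lab chow than on AIN-93 (median -0.82). Acaca was 349% of AIN-93 on high fructose (adjusted p = 0.10) and 28.1% on lab chow (adjusted p = 0.082), and its AIN-93 values of 8.75, 9.23 and 9.78 lay between those of both diets. Khk was 121% on high fructose (adjusted p = 0.59) and 43.7% on lab chow (adjusted p = 0.0075). Fabp5 was 241% (adjusted p = 0.25) and 9.30% (adjusted p = 0.0011). Apoa4 was called in both comparisons, at 303% of AIN-93 on high fructose (adjusted p = 0.046) and 20.1% on lab chow (adjusted p = 0.0011). Some genes were called between high fructose and AIN-93 and not between lab chow and AIN-93. Aox3 was 28.6% on high fructose (adjusted p = 0.013) and 144% on lab chow (adjusted p = 0.47). Saa4 was 36.7% (adjusted p = 0.039) and 97.1% (adjusted p = 0.97). Apoc2 was 175% (adjusted p = 0.046) and 74.0% (adjusted p = 0.25), and Crot was 59.0% (adjusted p = 0.046) and 128% (adjusted p = 0.33). In respiratory complexes II to V, Cyc1 was 135% on high fructose (adjusted p = 0.039) and 106% on lab chow (adjusted p = 0.72).

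Against the means of all 9 diets of the study, given as a description, high fructose had the highest mean of Khk, Tkfc, Pklr, Acaca, Fasn, Thrsp, Elovl6, Scd1, Elovl5 and Cs. For all of these but Khk and Tkfc, the EFA-deficient diet, rich in sucrose by the study's methods, came next. Its means were 14.61 for Elovl5 (14.68 on high fructose) and 11.33 for Cs (11.40). Fasn was 12.87 with a standard deviation of 0.91 (13.30 on high fructose), and Acaca 10.36 with 1.58 (11.06). Lab chow had the lowest mean of Khk, Tkfc and Acaca. For Fabp5, Apoa4 and Acly, high fructose came after the EFA-deficient diet, and for Rgs16 after diet restriction. The lowest mean of Cth, Aox3 and Gclm was that of high fructose. The EFA-deficient diet came next for Aox3 (10.74 against 10.24 on high fructose) and Gclm (10.27 against 10.17). Lab chow had the highest mean of Csad, Cyp2c55, Ces2a and Cyp3a11.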

How the data were processed

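The values are deposited log2 intensities per probe set, which the authors made with GCRMA (background correction and normalization between arrays), and were not normalized again. They run from 2.29 to 16.9, and 35.8% to 36.7% of the probes of each of the 6 arrays lie at the lowest value, which hides spread between mice. Array medians over kept probes were 8.50 to 8.56. Labels gave the groups and no batch, and p-values measure the spread between mice of 1 experiment. Probes that list 1 symbol (34958 of 45101) took their gene from the platform annotation, and symbols were updated by Entrez ID. A probe was kept when a diet mean exceeded log2(100), and a gene is the mean of its kept probes. Limma 3.58.1 in R 4.3.3 was fitted over all 27 arrays with 1 mean per diet, and p was adjusted by Benjamini and Hochberg over all genes of a comparison, with calls at 0.05. With all 3 arrays of a diet below the detection level, the other diet's mean is set against that level and the fold is given as at least that size, while the p tests the fitted difference. Motif searches and summaries were made in Python 3.11.15 with pandas 2.3.3 and numpy 2.4.6, and plots in matplotlib 3.10.9. The fit was tested on simulated data. Named genes are up to 15 largest increases and decreases without overlap, up to 5 called members per list, and a set of genes of known roles. The comparison, the genes and the lists were chosen with earlier results of these data known. Alternatives were 4 other filters, fits of fewer arrays, a trend and robust prior, array weights, median centring, quantile normalization, the replicate number as a block, 1 probe per gene, probes in place of genes, p adjusted over 3 comparisons, and each array left out. Deviations of same-numbered arrays of the 2 diets from their means correlated over genes with r of 0.25, -0.11 and 0.105, so the numbers were not taken as pairs. Probes with several symbols or none were not used.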

Additional observations from a re-analysis of the deposited data

How the results depend on the processing

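Against 523 calls (255 higher and 268 lower), the count was 319 (162 and 157) with no filter on low values, over 18194 genes, and 1038 (527 and 511) with array weights. Under the other alternatives that keep all 6 arrays it stayed within 1.5 times, from 386 with p adjusted over 3 comparisons to 743 for probes in place of genes. Leaving out 1 array gave 263 to 510 calls, 120 to 212 higher and 143 to 298 lower. With the replicate block there were 552 calls (267 and 285), and of the named genes Gss and Masp1 lost their call. The median difference of fatty acid synthesis, 1.83 with Aacs, was 1.30 with no filter, 2.05 with the level at log2(200), 1.76 with a filter over 9 diets, 1.72 with array weights and 1.72 with the highest probe of each gene, and 1.69 to 1.97 without 1 array. That of targets of CAR and PXR was -0.76 with no filter and -1.06 to -0.85 without 1 array. The cause of these shifts was not tested, beyond that no filter adds genes below the detection level. Of 120 named genes that were called, Masp1 reversed, at -0.28 with its highest probe, and in the others the direction held under every alternative fitted to genes in which they were tested. Of the named genes not called, Mlxipl was called under 5 of 20 alternatives (lowest adjusted p 0.0094), Srebf1 and Gclc under 2 (0.031 and 0.014) and Igf1 under 1 (0.02). Calls were lost for 48 with no filter, 20 with p adjusted over 3 comparisons, 15 with only the 6 arrays of both diets, and 19 to 45 without 1 array. The share of higher genes among calls stayed between 41.6% and 51.8%, and the median of all genes stayed within 0.02 of 0. With 3 arrays per diet, differences under 1.5-fold lie near the limit of the fit, and levels below log2(100) have no reliable order.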
